A study of Mus musculus with 20 samples.

Results

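The comparison described here sets intestinal libraries of Apc Min mice given DM-aKG against those of wild-type (WT) mice, to show which differences from WT intestine were measured under treatment and where treated libraries passed beyond the WT level. Its members were chosen by their sample titles, MIN tissue with DMaKG for 6 libraries and WT tissue for 7, which makes 13 of the 20 libraries of the series. All genes of the table were used, and 12433 of 24795 passed the filter of at least 1 RPKM in at least 6 of the 20 libraries. RPKM is a read count scaled to gene length and library depth.

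The series asks, in its title, how alpha-ketoglutarate bears on Wnt signaling and differentiation in colorectal cancer. The treated group is of genotype Apc Min and was given DM-aKG (6 libraries), the reference group is of genotype WT and is listed as untreated (7 libraries), and the remaining 7 libraries are Apc Min with a control treatment. No WT library with DM-aKG or with the control treatment was analysed here, so effects of the genotype, of the tumours and of the treatment cannot be told apart in the comparison with WT. The Apc Min allele is a germline mutation carried by every cell of the mouse, and its adenomas arise in the intestine. The labels give no age, no dose and no duration, and state neither how the tissue was sampled nor how much adenoma a library held. The titles speak of tissue, whereas other fields name organoids, an organoid medium and a low glutamine medium for all 3 groups, and the labels do not settle which is meant. The labels do not state that each library is a different animal. The p-values therefore reflect the variation among the libraries at hand, which may be technical.

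Apc is a scaffold of the complex that marks beta-catenin for destruction, and its loss leaves Wnt target genes switched on in crypt-like cells. DM-aKG is dimethyl alpha-ketoglutarate, an ester that enters cells and releases alpha-ketoglutarate, which the TCA cycle makes and which serves as a cosubstrate of dioxygenases that demethylate histones and DNA and hydroxylate proteins. In normal small intestine, T cells lodged in the epithelium and interferon gamma keep antigen presentation genes high in the lining cells, while fasting and glucocorticoids raise genes of fat oxidation and gluconeogenesis.

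The depth, estimated from the steps between low values, was 26.3 to 27.5 M reads in DM-aKG and 25.8 to 29.3 M reads in WT libraries (exact permutation p = 0.392). Apc itself, whose Min allele is a point mutation that transcript level does not test, lay at 11.6, 13.7 and 16.3 RPKM in DM-aKG and 6.8, 10.3 and 13.9 RPKM in WT libraries (log2 change 0.42, adjusted p = 0.0505, on the edge of the threshold and passing in 11 of 34 alternatives, among them leaving out WT replicate 4 or 5, DM-aKG replicate 4 or control replicate 1, 4 or 5, with adjusted p down to 0.0125). The tissue named in the titles was checked against its markers in the 13 libraries. The epithelial adhesion gene Epcam was at 506 RPKM or more, the smooth muscle myosin Myh11 at 110.1 or more, the plasma cell gene Jchain at 63.1 or more and the leukocyte gene Ptprc at 1.16 or more in every one. RNA of muscle and immune cells was thus present beside that of epithelium in all 13, as in whole tissue. Of the 15 pancreatic acinar markers, Prss1, Try4 and Try5 were listed at 0 in all 13, but others were not. The list summed to 31 to 65.6 RPKM in DM-aKG and 10.5 to 79.6 RPKM in WT libraries. DM-aKG replicates 2 and 6 correlated least with their group over genes (mean r of 0.9504 and 0.9521, against 0.9633 to 0.9731 for the other 4, as a description). DM-aKG replicate 2 held the highest level of most adenoma genes given here, and replicate 5 the lowest level of the proliferation genes named. Several list medians also differed between replicates 1 to 4 and replicates 5 to 7, so the median within each set is given in parentheses beside most lists. The second set holds only 2 DM-aKG and 3 WT libraries, the labels give no reason for a split, and the difference of the group effect between the sets passed for 0 of 12433 genes (limma, 786 at an unadjusted p under 0.05).

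Between DM-aKG and WT libraries, 2722 of 12433 genes (21.9%) were higher and 2151 (17.3%) lower, 39.2% together, at a Benjamini-Hochberg adjusted p under 0.05 in limma, and 294 and 306 of these differed by at least 1 on the log2 scale. The lowest DM-aKG library was above the highest WT library for 1164 genes (9.36%), and the highest DM-aKG library was below the lowest WT library for 968 (7.79%). Control Apc Min libraries, compared with the same 7 WT libraries, had 5368 genes higher (43.2%) and 1948 lower (15.7%), 58.8% together. The median log2 difference from WT over all genes tested was 0.0528 for DM-aKG and 0.199 for control. After median-of-ratios scaling the split for DM-aKG moved from 55.9% higher among the called genes to 44.7%, with 2251 higher and 2789 lower. Most genes named below were picked for a large change or for the lowest p of their list. Groups that do not overlap are therefore frequent among them by selection and say nothing more about a list. Below, levels stand as the lowest, median and highest RPKM of a group. Log2 changes are differences of mean log2(RPKM + 1), DM-aKG minus WT unless stated, so that the change of a weakly expressed gene is understated.

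Antigen presentation genes were among the lowest against WT. MHC class II molecules show peptides to CD4 T cells, and of 8 genes of the MHC class II list 7 were lower and none higher, against 17.3% of all genes tested lower, with a median log2 change of -3.12 (-3.22 in replicates 1 to 4, -3.0 in replicates 5 to 7) beside 0.0528 over all genes. Cd74, the invariant chain that escorts class II molecules (chr18:60803848-60812652, mm10), lay at 108, 126 and 154 RPKM in DM-aKG and 1050.3, 1407 and 1708 RPKM in WT libraries (log2 change -3.38, SE 0.25, adjusted p = 1.98e-08). H2-Aa, the class II alpha chain, lay at 48.2, 69 and 88.4 RPKM in DM-aKG and 585, 810.5 and 1065 RPKM in WT libraries (log2 change -3.58, SE 0.26, adjusted p = 1.98e-08). Every DM-aKG library was below every WT library for both genes, with medians about an order of magnitude apart. The beta chain H2-Ab1 had a log2 change of -3.51 (adjusted p = 7.18e-08), and the peptide loading genes H2-DMb1 and H2-DMa had changes of -3.93 and -2.81 (adjusted p = 3.17e-09 and 3.17e-09). Ciita, the coactivator that switches on class II genes, lay at 0.144, 0.435 and 0.889 RPKM in DM-aKG and 5.35, 6.27 and 8.49 RPKM in WT libraries (log2 change -2.32, SE 0.16, adjusted p = 1.17e-08). Again the groups did not overlap.

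The class I pathway, which shows peptides to CD8 T cells, was lower as well. All 16 genes tested of the MHC class I and immunoproteasome list were lower, with a median log2 change of -1.3 (-1.29 in replicates 1 to 4, -1.26 in replicates 5 to 7). Psmb8, an interferon-inducible proteasome subunit, lay at 6.24, 11.9 and 14.2 RPKM in DM-aKG and 45.4, 75.7 and 105 RPKM in WT libraries (log2 change -2.63, SE 0.27, adjusted p = 8.92e-07). Tap1, a subunit of the peptide transporter, lay at 4.3, 5.59 and 7.33 RPKM in DM-aKG and 14.9, 33.7 and 39.9 RPKM in WT libraries (log2 change -2.19, SE 0.24, adjusted p = 2.34e-06). Nlrc5, the class I counterpart of Ciita, lay at 0.329, 0.437 and 0.607 RPKM in DM-aKG and 1.41, 2.63 and 4.33 RPKM in WT libraries (log2 change -1.43, SE 0.14, adjusted p = 8.8e-07). For these 3 genes no DM-aKG library reached the WT range. The class I gene H2-Q4 changed by -1.02 (adjusted p = 1.71e-06), and as a member of a family of near-identical genes its reads may be shared with neighbours. The control libraries lay on the same side of WT, with list medians of -3.73 for class II and -1.57 for class I. In the direct comparison of DM-aKG with control, where 5.91% of all genes were higher and 27.6% lower (33.5% together), no class II gene passed in either direction and 2 of the 16 class I genes were higher, H2-Q4 among them (log2 difference 0.43, adjusted p = 0.00461).

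**Figure D1:**
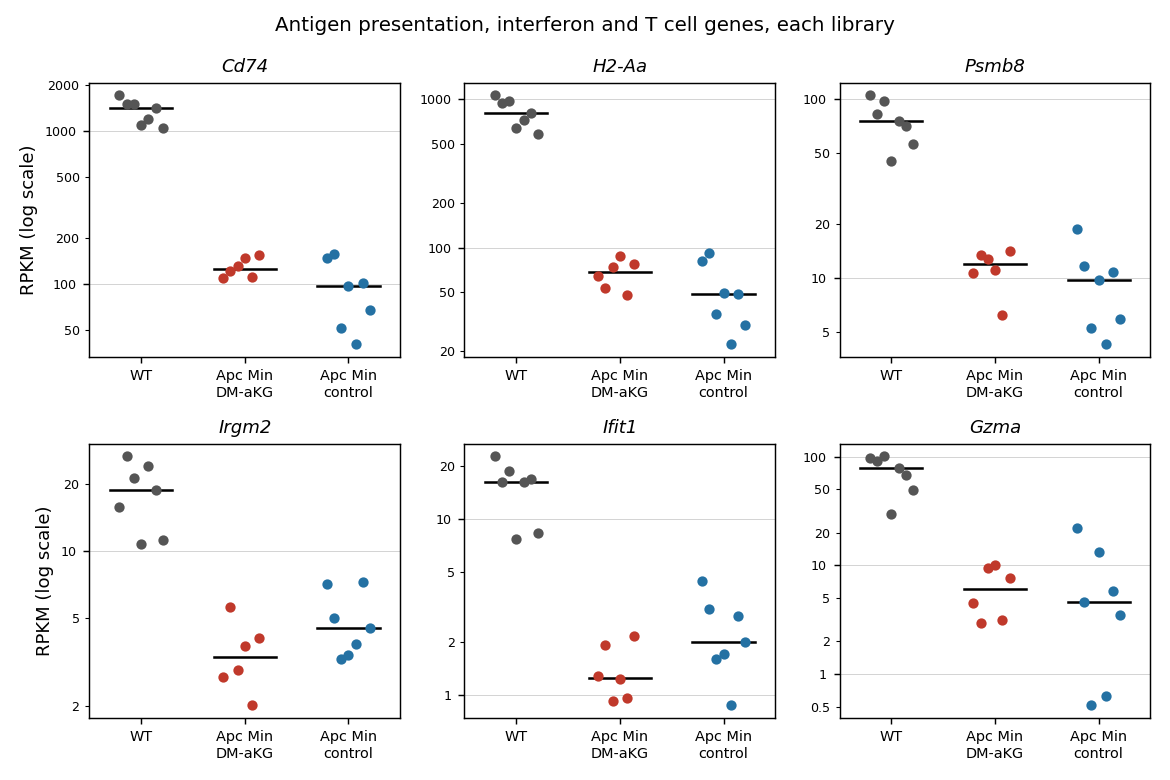
RPKM on a log scale of Cd74, H2-Aa, Psmb8, Irgm2, Ifit1 and Gzma in each library (points, ordered by replicate number within a group; black bars are group medians) for WT (7), DM-aKG treated Apc Min (6) and control Apc Min (7). For all 6 genes every DM-aKG library lies below every WT library.

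Genes that interferons switch on moved the same way. Of 22 genes of the interferon gamma induced list 21 were lower (median -1.63, -1.61 in replicates 1 to 4, -1.79 in replicates 5 to 7), and of 19 genes of the type I interferon-stimulated list 18 were lower (median -1.47, -1.55 in replicates 1 to 4, -1.31 in replicates 5 to 7). No gene of either list was higher. Ubd, a ubiquitin-like protein induced by interferon gamma (chr17:37193892-37196095), had the lowest log2 change of the genes named by size, at 0.482, 1.07 and 1.78 RPKM in DM-aKG and 5.51, 62.1 and 162 RPKM in WT libraries (log2 change -4.45, SE 0.56, adjusted p = 1.36e-05). WT libraries spread widely for Ubd, yet their lowest was still above the highest DM-aKG library. Ido1, which degrades tryptophan, lay at 0.749, 3.03 and 4.94 RPKM in DM-aKG and 16.6, 45.2 and 67.2 RPKM in WT libraries (log2 change -3.56, SE 0.41, adjusted p = 4.75e-06). Upp1, a uridine phosphorylase, lay at 4.21, 9.75 and 16.8 RPKM in DM-aKG and 92.7, 162 and 283 RPKM in WT libraries (log2 change -3.96, SE 0.38, adjusted p = 5.59e-07). Irgm2, an immunity-related GTPase, lay at 2.02, 3.32 and 5.56 RPKM in DM-aKG and 10.7, 18.7 and 26.6 RPKM in WT libraries (log2 change -2.08, SE 0.22, adjusted p = 1.74e-06). None of the 6 treated libraries entered the WT range for Ido1, Upp1 or Irgm2.

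Among type I interferon genes, Ifit1, a sensor of foreign RNA caps, lay at 0.915, 1.25 and 2.17 RPKM in DM-aKG and 7.71, 16.3 and 22.8 RPKM in WT libraries (log2 change -2.7, SE 0.24, adjusted p = 3.12e-07). Oas3, an activator of RNase L, lay at 0.211, 0.486 and 1.83 RPKM in DM-aKG and 5.05, 9.86 and 15.4 RPKM in WT libraries (log2 change -2.69, SE 0.21, adjusted p = 5.38e-08), with DM-aKG replicate 6 highest of the treated group. Oas1a and Oas1g, of the same enzyme family, changed by -2.14 and -1.8 (adjusted p = 1.28e-06 and 1.22e-06), and as similar neighbours they may share reads. No treated library reached the WT range for any of these 4 genes. Zbp1, a sensor of nucleic acids that triggers cell death, lay at 0.682, 0.962 and 2.14 RPKM in DM-aKG and 6.15, 22.1 and 37.9 RPKM in WT libraries (log2 change -3.22, SE 0.35, adjusted p = 2.34e-06). The apolipoprotein L genes Apol9b and Apol10a, named by size and in neither list, changed by -3.25 and -3.22 (adjusted p = 7.18e-08 and 0.00328), both in a family of similar genes that may share reads. For Apol10a the groups overlapped through DM-aKG replicate 6, at 88.3 RPKM against 2.68 to 20.2 RPKM in the other treated libraries, and its adjusted p was 0.241 within replicates 5 to 7. Ceacam10, an adhesion-family protein also named by size, changed by -3.2 (adjusted p = 6.28e-07).

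Some promoters of these genes hold sequence words that interferon factors and the class II machinery are known to bind. Those shown were picked for holding a match, among genes named here by size or by list that fell together. RefSeq promoter sequences (GRCm38.p6) were read over 200 bases upstream of the annotated start, 1 entry a gene, and both strands were searched. The interferon response word, GAAA then any pair of bases then GAAA, was found in 10 of the 15 interferon gamma induced genes with a promoter entry and in 9 of 14 type I genes, against 2.33% of 27025 promoters. The Y box word CTGATTGG was found in 2 of 5 class II and 5 of 14 class I promoters, against 3.77% of promoters, and the word TTCNNNGAA in 7 of 15 and 2 of 14 promoters of the interferon lists, against 5.62%. Of the 12 genes named by size as lowest, 8 had a promoter entry. Among these 8, the interferon word was found in 3 and the Y box word in 1. A match shows that the letters are there, not that a factor binds. Capitals mark the Y box in H2-Aa (chr17:34287824-34288023, minus strand) and the interferon word, in either orientation, in Irgm2 (chr11:58214777-58214976, plus strand), Ifit1 (chr19:34640689-34640888, plus strand), Oas3 (chr5:120777660-120777859, minus strand), Apol9b (chr15:77728872-77729071, plus strand, 2 overlapping matches) and Apol10a (chr15:77476847-77477046, plus strand), each written 5′ to 3′ toward the start.
H2-Aa: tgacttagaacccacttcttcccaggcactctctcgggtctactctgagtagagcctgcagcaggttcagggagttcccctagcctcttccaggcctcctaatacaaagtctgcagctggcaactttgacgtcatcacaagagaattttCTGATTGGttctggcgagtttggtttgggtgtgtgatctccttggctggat
Irgm2: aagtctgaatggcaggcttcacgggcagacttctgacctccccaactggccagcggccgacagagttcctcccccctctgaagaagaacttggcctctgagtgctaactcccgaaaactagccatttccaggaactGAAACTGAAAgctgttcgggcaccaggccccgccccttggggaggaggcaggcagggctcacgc
Ifit1: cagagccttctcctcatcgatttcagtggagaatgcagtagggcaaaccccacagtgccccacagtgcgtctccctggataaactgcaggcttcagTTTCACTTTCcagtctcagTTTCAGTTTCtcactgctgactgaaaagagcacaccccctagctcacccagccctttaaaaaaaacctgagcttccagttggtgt
Oas3: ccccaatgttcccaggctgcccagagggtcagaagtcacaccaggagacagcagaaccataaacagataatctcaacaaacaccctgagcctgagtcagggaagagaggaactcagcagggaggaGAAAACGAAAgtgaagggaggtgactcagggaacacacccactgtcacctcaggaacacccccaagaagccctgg
Apol9b: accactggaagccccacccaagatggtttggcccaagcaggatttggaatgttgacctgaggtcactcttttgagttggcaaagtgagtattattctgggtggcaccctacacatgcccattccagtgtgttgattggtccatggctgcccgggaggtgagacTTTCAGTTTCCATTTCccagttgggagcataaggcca
Apol10a: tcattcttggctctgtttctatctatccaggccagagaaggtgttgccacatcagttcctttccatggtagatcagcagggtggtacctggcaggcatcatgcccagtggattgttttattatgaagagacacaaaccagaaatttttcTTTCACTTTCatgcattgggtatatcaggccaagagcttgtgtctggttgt

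Markers of lymphocytes were lower together with the interferon genes. Of 14 genes of the T and NK cell list 13 were lower and none higher (median -1.66, -1.6 in replicates 1 to 4, -1.66 in replicates 5 to 7). The summed level of the 19 list genes in the table was 11.7, 24.3 and 35.2 RPKM in DM-aKG, 93.1, 214 and 243 RPKM in WT and 5.87, 19.2 and 52.8 RPKM in control libraries. Cd3e, a chain of the T cell receptor complex, lay at 0.629, 1.33 and 2.02 RPKM in DM-aKG and 4.12, 7.62 and 9.65 RPKM in WT libraries (log2 change -1.94, SE 0.21, adjusted p = 1.94e-06). Cd8a, of cytotoxic T cells, lay at 0.216, 0.682 and 1.35 RPKM in DM-aKG and 3.49, 5.26 and 6.65 RPKM in WT libraries (log2 change -1.89, SE 0.18, adjusted p = 4.58e-07). Itgae, the integrin that holds T cells in the epithelium, lay at 0.379, 0.581 and 1.04 RPKM in DM-aKG and 1.96, 3.33 and 5.67 RPKM in WT libraries (log2 change -1.44, SE 0.14, adjusted p = 8.8e-07). All 3 were at least 3-fold lower at the median, without overlap. Gzma, a granule protease of killer lymphocytes, lay at 2.96, 6.09 and 9.96 RPKM in DM-aKG and 29.8, 78.5 and 101 RPKM in WT libraries (log2 change -3.38, SE 0.53, adjusted p = 9.93e-05), and Nkg7, another granule gene, changed by -1.96 (adjusted p = 1.28e-06). The treated libraries did not reach the WT range for these 2 genes either. Their part in the fall of the interferon genes was not tested. In bulk RNA, fewer cells of a type and less RNA per cell cannot be told apart.

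Of 9 genes of the B and plasma cell list 7 were lower and none higher (median -1.2, -1.07 in replicates 1 to 4, -1.38 in replicates 5 to 7). Jchain, which joins the chains of secreted IgA, lay at 63.1, 104 and 203 RPKM in DM-aKG and 197, 485 and 689 RPKM in WT libraries (log2 change -2.03, SE 0.31, adjusted p = 8.28e-05), with DM-aKG replicate 4, the highest treated library, just above WT replicate 1, the lowest WT library. The plasma cell genes Tnfrsf17, Derl3 and Mzb1 changed by -1.2, -1.46 and -1.76 (adjusted p = 5.09e-06, 7.41e-05 and 0.000149), without overlap of the groups. Ptprc, on all leukocytes, lay at 1.16, 3.05 and 3.9 RPKM in DM-aKG and 4.46, 6.82 and 9.93 RPKM in WT libraries (log2 change -1.11, SE 0.25, adjusted p = 0.00194), and its adjusted p was 0.0663 within replicates 1 to 4. Single myeloid genes differed in either direction. In the macrophage and dendritic cell list 5 of 12 genes were lower and 2 higher (median -0.38, -0.28 in replicates 1 to 4, -0.56 in replicates 5 to 7), beside 17.3% and 21.9% of all genes. Without WT replicate 1, 8 were lower. Within replicates 1 to 4 there were 2 lower and 2 higher, and within replicates 5 to 7 there were 1 and 1. The macrophage genes Lyz2, Csf1r and Cx3cr1 changed by -1.26, -0.87 and -1.03 (adjusted p = 0.00191, 0.00163 and 0.000848), with overlapping groups. The scavenger receptor Cd163 lay at 1.33, 2.22 and 2.51 RPKM in DM-aKG and 0.212, 0.494 and 0.889 RPKM in WT libraries (log2 change 1.01, SE 0.16, adjusted p = 0.000112), every treated library above every WT library.

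Some neutrophil genes stood above WT. In the neutrophil and mast cell list 4 of 8 genes were higher and none lower (median 0.75, 1.04 in replicates 1 to 4, 0.41 in replicates 5 to 7), against 21.9% of all genes tested higher. Of the 4, 3 are the neutrophil genes given here, and the other is not specific to neutrophils. S100a9, which with S100a8 forms the abundant granulocyte protein calprotectin, lay at 0.415, 2.87 and 6.24 RPKM in DM-aKG and 0, 0.130 and 0.338 RPKM in WT libraries (log2 change 1.65, SE 0.32, adjusted p = 0.000663). S100a8 changed by 1.57 and the neutrophil gene Retnlg by 0.97 (adjusted p = 0.000804 and 0.00173). The groups did not overlap for these 3 genes, and none of the 3 calls held within replicates 5 to 7 (adjusted p = 0.331, 0.379 and 0.409). These levels are low, and S100a9 was listed at 0 in WT replicate 3.

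Genes that glucocorticoids and fasting induce were among the highest against WT. Of 17 genes of the glucocorticoid-induced and metallothionein list 15 were higher and none lower, against 21.9% of all genes tested, with a median log2 change of 1.81 (1.92 in replicates 1 to 4, 1.59 in replicates 5 to 7). Of 26 genes of the fatty acid oxidation and PPAR alpha target list 13 were higher and none lower (median 0.60, 0.42 in replicates 1 to 4, 1.02 in replicates 5 to 7). Pdk4, a kinase that shuts pyruvate out of the TCA cycle and a member of both lists (chr6:5483351-5496309), had the highest log2 change of the genes named by size, at 14.1, 75.3 and 338 RPKM in DM-aKG and 0.993, 1.59 and 2.01 RPKM in WT libraries (log2 change 5.0, SE 0.73, adjusted p = 5.91e-05). DM-aKG replicate 5 was the highest at 338 RPKM and replicate 6 the lowest, still above every WT library. G6pc, glucose-6-phosphatase, the last step of gluconeogenesis, named by size, lay at 19.3, 43.1 and 192 RPKM in DM-aKG and 0.724, 2.27 and 2.88 RPKM in WT libraries (log2 change 4.01, SE 0.67, adjusted p = 0.000195).

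Fkbp5, a chaperone partner of the glucocorticoid receptor and a target of it, lay at 25.6, 71.1 and 126 RPKM in DM-aKG and 3.8, 7.64 and 22.9 RPKM in WT libraries (log2 change 2.8, SE 0.37, adjusted p = 1.69e-05). Sgk1, a kinase induced by corticosteroids, lay at 134, 221 and 343 RPKM in DM-aKG and 36, 49.2 and 63.2 RPKM in WT libraries (log2 change 2.1, SE 0.27, adjusted p = 1.21e-05). Ddit4, an inhibitor of mTOR signalling that is not in the list, lay at 17.9, 53.5 and 76.3 RPKM in DM-aKG and 5.06, 5.99 and 7.18 RPKM in WT libraries (log2 change 2.79, SE 0.26, adjusted p = 3.86e-07). No treated library came down to the WT range for these 3 genes. Klf15, a transcription factor of the fasting response, changed by 1.42 and the phosphatase Dusp1 by 1.39 (adjusted p = 9.04e-06 and 7.72e-06). Mt2, a metal-binding metallothionein induced by glucocorticoids and zinc, lay at 60.4, 167 and 343 RPKM in DM-aKG and 4.54, 20.9 and 24.5 RPKM in WT libraries (log2 change 3.38, SE 0.47, adjusted p = 3.2e-05). Ppara, the nuclear receptor that drives fatty acid oxidation, lay at 19, 26.3 and 55.4 RPKM in DM-aKG and 4.13, 5.49 and 6.69 RPKM in WT libraries (log2 change 2.17, SE 0.29, adjusted p = 2e-05). The groups were separate for Mt2 and for Ppara. The oxidation enzymes Acaa1b, Acaa2 and Eci2 changed by 2.85, 1.23 and 1.25 (adjusted p = 0.000352, 0.000189 and 0.000247).

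Mt2 lies on the plus strand, and 200 bases upstream of its RefSeq start (chr8:94172418-94172617, GRCm38.p6) hold 2 matches to the metal response word, TGCACNC or TGCGCNC, searched on both strands and given in capitals. It is shown because metallothionein promoters are the textbook case of that word, which however occurs in 18.2% of all promoters and in 4 of 14 promoters of the list. The glucocorticoid word ACANNNTGT was found in 1 of those 14, against 4.58% of all promoters.
Mt2: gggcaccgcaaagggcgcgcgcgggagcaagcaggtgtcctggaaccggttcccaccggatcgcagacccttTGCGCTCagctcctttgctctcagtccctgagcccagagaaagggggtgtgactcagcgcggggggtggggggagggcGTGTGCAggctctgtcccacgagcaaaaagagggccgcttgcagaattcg

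Gal3st2b, a galactose sulfotransferase of a cluster of similar genes that may share reads, lay at 13.2, 19.3 and 62.2 RPKM in DM-aKG and 0.0817, 0.754 and 0.975 RPKM in WT libraries (log2 change 3.88, SE 0.31, adjusted p = 6.99e-08), without overlap. Tmem37 changed by 2.82, also without overlap (adjusted p = 4.34e-07). Flvcr2, a membrane transporter, changed by 2.71 without overlap (adjusted p = 6.37e-07). Rab30, a small GTPase of the Golgi, changed by 2.86 with overlapping groups (adjusted p = 0.000861). Apoa4, an apolipoprotein of chylomicrons, lay at 858, 1765 and 2545 RPKM in DM-aKG and 16.8, 331 and 1698 RPKM in WT libraries (log2 change 2.77, SE 0.81, adjusted p = 0.0118). WT libraries spread about 100-fold for Apoa4 and reached into the treated range. Control Apc Min libraries stood above the same WT libraries too, with list medians of 1.14 for the glucocorticoid list and 0.38 for the oxidation list. In DM-aKG against control, 4 of 17 glucocorticoid-list genes were higher and 1 lower, and 5 of 26 oxidation-list genes were higher and none lower. Over all genes 5.91% were higher and 27.6% lower in that comparison. The log2 difference was 0.96 for Ppara, 0.95 for Sgk1 and 0.96 for Klf15 (adjusted p = 0.0144, 0.00943 and 0.000333). Dusp1 differed in the other direction, by -0.50 (adjusted p = 0.0283). For Pdk4 and G6pc the difference between DM-aKG and control did not pass (log2 1.5 and 0.92, adjusted p = 0.122 and 0.306).

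Within replicates 5 to 7 alone, the log2 changes of Pdk4, G6pc, Mt2, Fkbp5 and Ppara were 5.04, 4.48, 2.98, 2.57 and 2.5, with adjusted p of 0.086, 0.082, 0.071, 0.0629 and 0.0524.

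**Figure D2:**
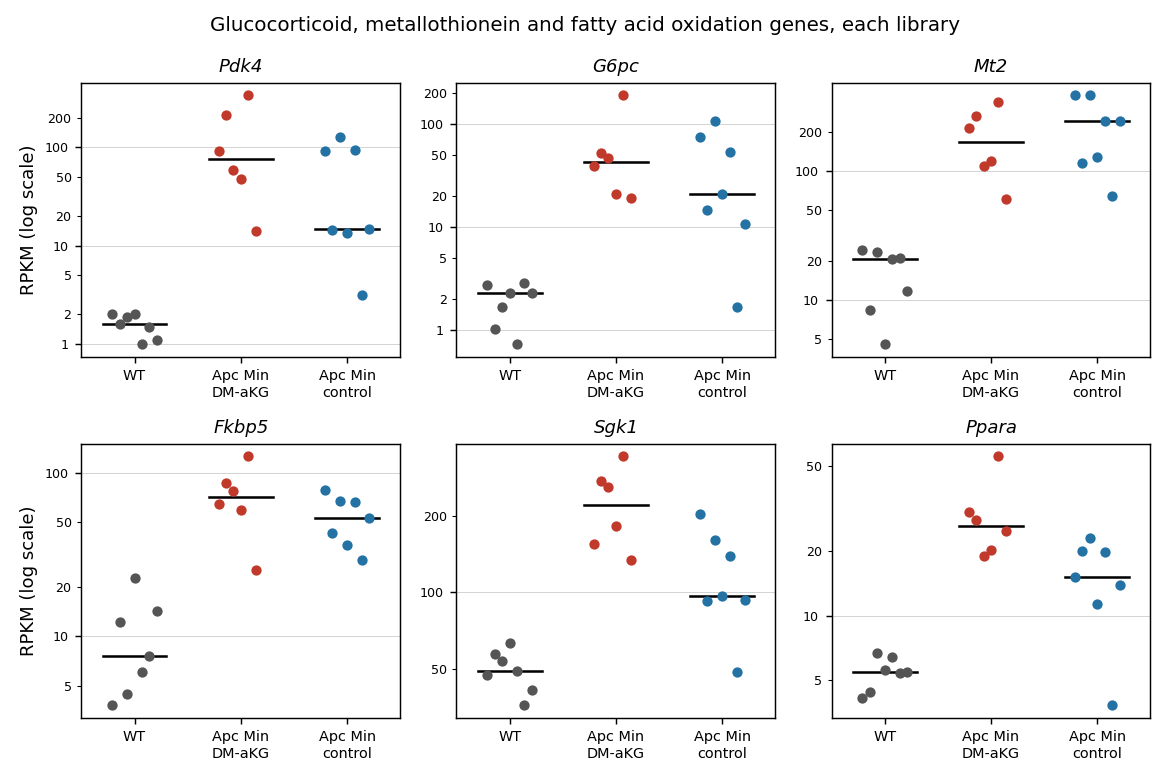
RPKM on a log scale of Pdk4, G6pc, Mt2, Fkbp5, Sgk1 and Ppara in each library (points, ordered by replicate number within a group; black bars are group medians) for WT (7), DM-aKG treated Apc Min (6) and control Apc Min (7). For all 6 genes every DM-aKG library lies above every WT library, and the control medians lie above the WT medians, with a wide spread.

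Clock genes were among those higher. In the circadian clock list 10 of 20 genes were higher and 1 lower (median 0.35, 0.33 in replicates 1 to 4, 0.29 in replicates 5 to 7). The count higher was 6 without DM-aKG replicate 5, and 2 were lower without DM-aKG replicate 1, DM-aKG replicate 2 or control replicate 3. Per1, a clock repressor that glucocorticoids also induce, lay at 11.2, 17.2 and 32.9 RPKM in DM-aKG and 3.21, 4.54 and 6.16 RPKM in WT libraries (log2 change 1.84, SE 0.25, adjusted p = 2.89e-05). Nfil3, a repressor of clock output, changed by 1.37 (adjusted p = 0.000163). The groups did not overlap for Per1 or Nfil3. Hlf, an output factor of the clock, lay at 4.52, 5.28 and 9.53 RPKM in DM-aKG and 2.4, 2.75 and 3.57 RPKM in WT libraries (log2 change 0.77, SE 0.13, adjusted p = 0.000254) and at 1.86, 2.54 and 3.23 RPKM in control libraries, so that it was above WT with treatment and not called in control (log2 -0.19, adjusted p = 0.204). Its difference between DM-aKG and control passed (log2 0.96, adjusted p = 1.78e-05). The labels analysed here give no hour of sampling, and its part in these values was not tested.

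Of 28 genes of the hypoxia-inducible and glycolysis list 12 were higher and 4 lower (median 0.26, 0.14 in replicates 1 to 4, 0.32 in replicates 5 to 7), with 2 lower without DM-aKG replicate 5. Bnip3, a mitophagy receptor induced by low oxygen, lay at 31.8, 37.8 and 49.5 RPKM in DM-aKG and 8.85, 9.96 and 15.5 RPKM in WT libraries (log2 change 1.78, SE 0.16, adjusted p = 2.69e-07). Ndrg1, a stress-induced gene of differentiating cells, lay at 78.1, 93.2 and 163 RPKM in DM-aKG and 16.4, 22.6 and 30.7 RPKM in WT libraries (log2 change 2.07, SE 0.25, adjusted p = 7.2e-06). Vegfa, the vascular growth factor, lay at 29.9, 38 and 42.8 RPKM in DM-aKG and 13.1, 18.9 and 20.1 RPKM in WT libraries (log2 change 1.04, SE 0.12, adjusted p = 5.47e-06). The treated and WT libraries were separate for all 3. Pfkl, a glycolytic kinase, changed by 1.17 (adjusted p = 0.000114). The control list median was 0.91, and Pfkl was lower in DM-aKG than in control (log2 -0.75, adjusted p = 0.00441).

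Enzymes that use alpha-ketoglutarate as a cosubstrate were called at shares near those of all genes. In the 2-oxoglutarate dioxygenase list 9 of 31 genes were higher and 3 lower (median 0.13, 0.15 in replicates 1 to 4, 0.12 in replicates 5 to 7) beside 21.9% higher and 17.3% lower over all genes, a background near which the list's counts say nothing particular. Kdm3a, a histone H3K9 demethylase induced by hypoxia, lay at 10.6, 14.6 and 18.6 RPKM in DM-aKG and 5.86, 6.56 and 8.15 RPKM in WT libraries (log2 change 1.0, SE 0.16, adjusted p = 0.000115). Kdm4b, another histone demethylase, changed by 0.51, and Egln1, the hydroxylase that marks HIF for destruction, by 0.45 (adjusted p = 3.49e-05 and 0.00166). Kdm5c, an H3K4 demethylase, changed by -0.39 (adjusted p = 0.00419). The groups did not overlap for these 4 genes, which were named for having the lowest p of the list.

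Vascular genes and haemoglobin were above WT. In the endothelial list 11 of 12 genes were higher and none lower (median 0.85, 0.85 in replicates 1 to 4, 0.78 in replicates 5 to 7). Pecam1, the junction protein of endothelium, lay at 10.9, 14.2 and 17.1 RPKM in DM-aKG and 4.14, 7.41 and 8.6 RPKM in WT libraries (log2 change 0.99, SE 0.14, adjusted p = 4.06e-05). Vwf, the clotting factor made by endothelium, lay at 4.38, 5.68 and 6.75 RPKM in DM-aKG and 0.824, 2.26 and 2.86 RPKM in WT libraries (log2 change 1.17, SE 0.14, adjusted p = 6.48e-06). Egfl7 and Esam, also of vessels, changed by 0.88 and 0.89 (adjusted p = 1.22e-06 and 7.86e-06). The groups did not overlap for these 4 genes. Control libraries had a list median of 0.77 against the same WT libraries. All 7 genes tested of the red blood cell list were higher (median 2.18, 2.51 in replicates 1 to 4, 1.47 in replicates 5 to 7). Haemoglobin genes have near-identical copies. Hbb-b2 and Hbb-bt were listed at equal values in all 20 libraries, and Hbb-b1 stood in a nearly fixed ratio to Hbb-bs. The list count is therefore not a count of independent genes, and the haemoglobin sum may hold the same reads repeatedly. That sum was 98.2, 230.8 and 669.5 RPKM in DM-aKG and 22.6, 40.6 and 80.7 RPKM in WT libraries. It did not overlap between the groups (2-sided exact permutation p = 0.000583, the smallest that 6 against 7 libraries can give). Alas2, the haem synthesis enzyme of red cell precursors, lay at 0.752, 2.1 and 5.12 RPKM in DM-aKG and 0.129, 0.197 and 0.424 RPKM in WT libraries (log2 change 1.32, SE 0.28, adjusted p = 0.0012). How much blood each sample held is not in the labels, and its part in these values was not tested.

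Smooth muscle genes were not called against WT in treated libraries and were lower in control libraries. None of 15 genes of the smooth muscle list was called in DM-aKG against WT (median -0.06, limma; 1 was lower on leaving out any 1 of 9 libraries: WT replicate 5, DM-aKG replicates 1, 3 and 4 and control replicates 1, 2, 3, 5 and 6), 15 of 15 were lower in control (median -0.84) and 14 were higher in DM-aKG than in control. Over all genes 15.7% were lower in control than in WT, and 5.91% were higher in DM-aKG than in control. Myh11 lay at 110.1, 165 and 213 RPKM in DM-aKG, 123, 145 and 194 RPKM in WT and 36.8, 84.1 and 139.9 RPKM in control libraries (log2 change 0.06 from WT, adjusted p = 0.847). The sign of the Myh11 change flipped after median-of-ratios scaling and without DM-aKG replicate 3 (log2 -0.01 and -0.02). In the pacemaker, enteric neuron and glia list 9 of 12 genes were higher and none lower (median 0.44, 0.43 in replicates 1 to 4, 0.43 in replicates 5 to 7). Snap25, of nerve endings, changed by 0.48 and the neuronal gene Stmn2 by 0.51 (adjusted p = 0.000918 and 0.00602). In the fibroblast and matrix list 3 of 17 genes were higher and 1 lower (median 0.10, 0.23 in replicates 1 to 4, -0.18 in replicates 5 to 7, control median 1.05). Over all genes 21.9% were higher and 17.3% lower, so neither count stands above its background. Without WT replicate 1 or DM-aKG replicate 3 or 6, 2 or 3 were lower. Dcn, a matrix proteoglycan, changed by 0.78 and the fibroblast receptor Pdgfra by 0.58 (adjusted p = 0.00607 and 0.00909), while Thy1, shared by fibroblasts and T cells, changed by -0.42 (adjusted p = 0.00221).

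**Figure D3:**
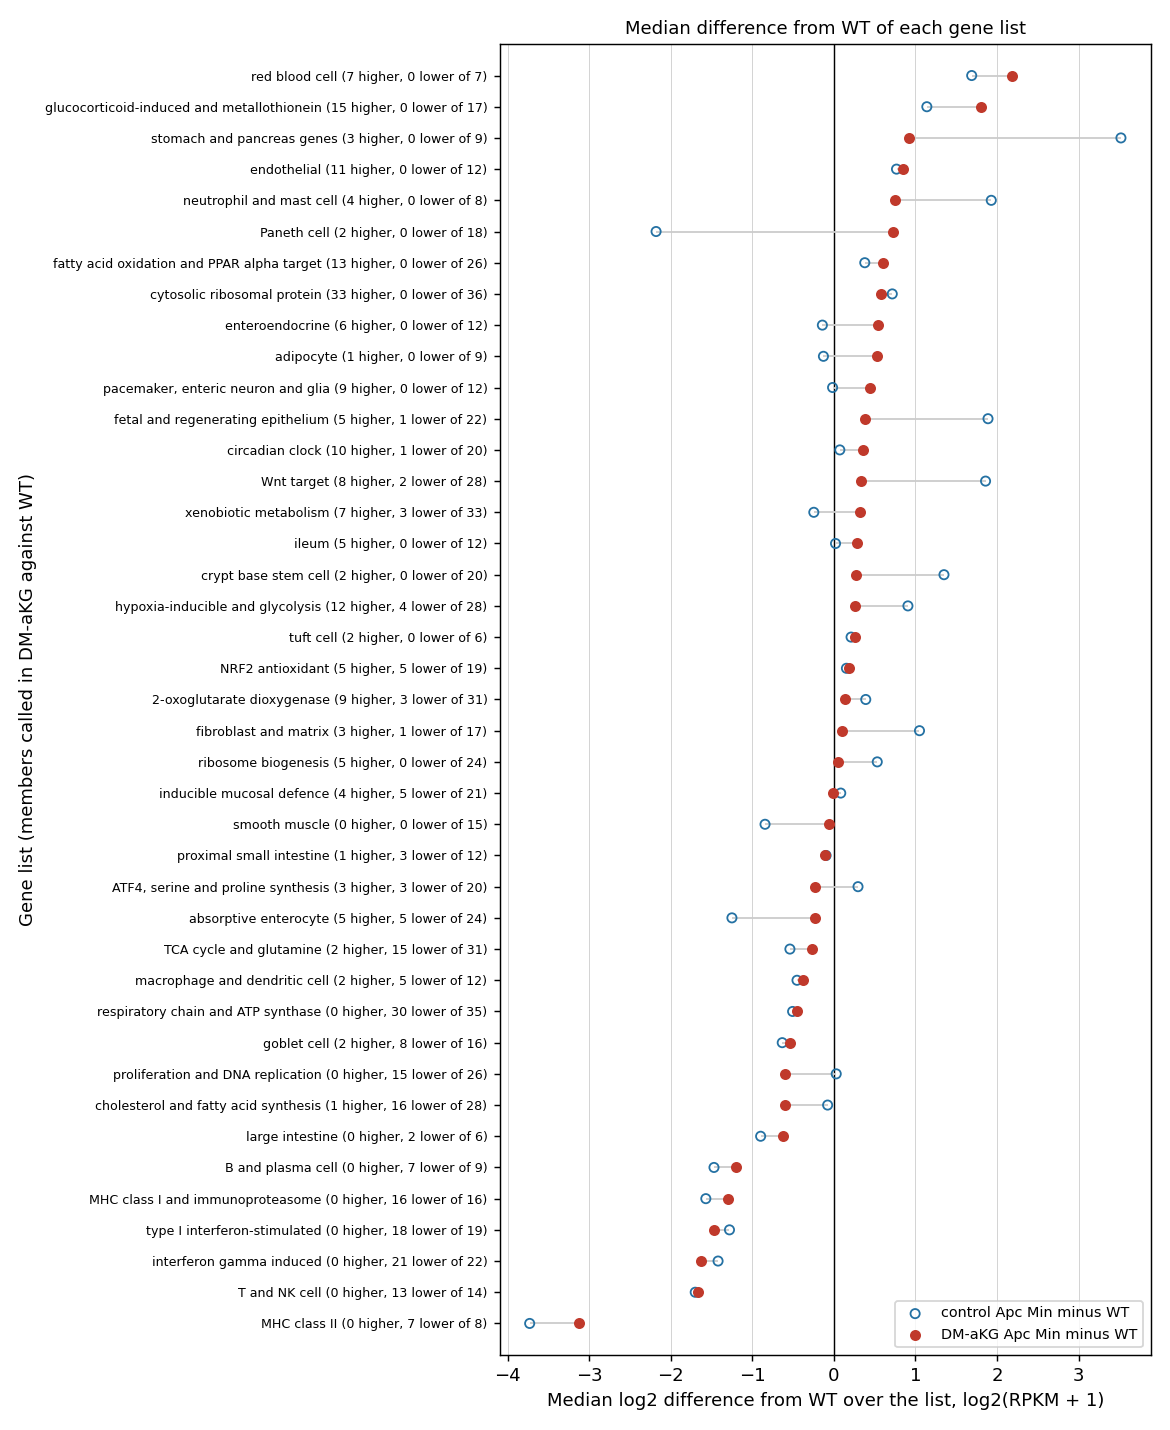
Median log2 difference from WT of the 41 gene lists with at least 5 genes tested, for DM-aKG treated Apc Min (filled red) and control Apc Min (open blue) libraries, both against the same 7 WT libraries; each label gives how many list members were called higher and lower in DM-aKG against WT. The antigen presentation, interferon and T cell lists lie farthest below 0 for DM-aKG, smooth muscle lies at -0.06 for DM-aKG and -0.84 for control, and Wnt target and fetal lists lie nearer to 0 for DM-aKG.

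Lipid synthesis genes were below WT under treatment. Of 28 genes of the cholesterol and fatty acid synthesis list 16 were lower and 1 higher (median -0.60, -0.68 in replicates 1 to 4, -0.69 in replicates 5 to 7). Sqle, squalene epoxidase, a rate-limiting step of cholesterol synthesis, lay at 17.9, 22.9 and 32.8 RPKM in DM-aKG and 43.4, 60.4 and 121 RPKM in WT libraries (log2 change -1.46, SE 0.23, adjusted p = 9.77e-05). Fdps, which makes farnesyl diphosphate, lay at 15.2, 24.2 and 38.2 RPKM in DM-aKG and 44.5, 50.2 and 111 RPKM in WT libraries (log2 change -1.28, SE 0.23, adjusted p = 0.000387). The mevalonate pathway enzymes Idi1 and Pmvk changed by -1.23 and -0.97 (adjusted p = 0.000404 and 0.000279). The treated libraries were below all WT libraries for these 4 genes. In control libraries 4 of the 28 were lower and 2 higher against the same WT libraries (median -0.08), beside 15.7% and 43.2% of all genes. The direct comparison of DM-aKG with control gave 15 lower and none higher, beside 27.6% and 5.91% of all genes. Its log2 differences were -0.73 for Sqle and -1.1 for Fdps (adjusted p = 0.0191 and 0.0012).

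Mitochondrial genes were lower, each by less than 1 on the log2 scale at the median. In the respiratory chain and ATP synthase list 30 of 35 genes were lower and none higher (median -0.46, -0.53 in replicates 1 to 4, -0.52 in replicates 5 to 7). Ndufs1, a subunit of complex I, lay at 19.9, 23.3 and 25.5 RPKM in DM-aKG and 33.6, 36.8 and 38.5 RPKM in WT libraries (log2 change -0.64, SE 0.093, adjusted p = 4.8e-05). Atp5b, the catalytic subunit of ATP synthase, lay at 326, 400.1 and 422 RPKM in DM-aKG and 539.9, 579 and 676 RPKM in WT libraries (log2 change -0.62, SE 0.099, adjusted p = 0.000123). Uqcrb and Uqcrc2, of complex III, changed by -0.78 and -0.46 (adjusted p = 0.000134 and 0.000137). The groups did not overlap for these 4 genes. The list of TCA cycle and glutamine genes had 15 of 31 lower and 2 higher (median -0.27, -0.24 in replicates 1 to 4, -0.34 in replicates 5 to 7), the latter 1 without WT replicate 1, 2 or 3. Cs, citrate synthase, which opens the cycle, lay at 122, 175 and 226 RPKM in DM-aKG and 280.1, 298 and 415 RPKM in WT libraries (log2 change -0.88, SE 0.16, adjusted p = 0.000421). Sdhb, of succinate dehydrogenase, changed by -0.63 without overlap, and Mdh1, the cytosolic malate dehydrogenase, by -1.49 with overlap (adjusted p = 0.000799 and 0.000846). Glul, glutamine synthetase, was 1 of the 2 genes higher, at 61.3, 88.8 and 132 RPKM in DM-aKG and 18, 23 and 37.5 RPKM in WT libraries (log2 change 1.8, SE 0.22, adjusted p = 9.22e-06). Control list medians were -0.51 and -0.54, and no respiratory chain gene passed between DM-aKG and control.

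Ribosomal protein genes went the other way. In the cytosolic ribosomal protein list 33 of 36 genes were higher and none lower (median 0.57, 0.66 in replicates 1 to 4, 0.39 in replicates 5 to 7, control median 0.72). Rpl5, a protein of the large subunit, lay at 209.5, 275 and 306 RPKM in DM-aKG and 130.2, 163 and 186 RPKM in WT libraries (log2 change 0.74, SE 0.11, adjusted p = 6.95e-05). Rpl10a, Rpl4 and Rpl23 changed by 0.74, 0.63 and 0.60 (adjusted p = 0.000136, 0.000159 and 0.000193). DM-aKG replicate 6 was the lowest treated library for all 4 named, and still above WT. Processed pseudogenes of these genes are near-identical copies, so reads may be shared.

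Cell cycle genes were lower, unevenly between libraries. In the proliferation and DNA replication list 15 of 26 genes were lower and none higher (median -0.60, -0.20 in replicates 1 to 4, -1.29 in replicates 5 to 7). Within replicates 1 to 4 only 1 of the 26 was called, and within replicates 5 to 7 it was 10. The count was 9, 8 and 6 without WT replicates 4, 5 and 7, and without DM-aKG replicate 5 it was 5, with a median of -0.47. Birc5, survivin, of the dividing spindle, lay at 0.896, 2.88 and 3.47 RPKM in DM-aKG and 5.19, 5.89 and 7.34 RPKM in WT libraries (log2 change -0.99, SE 0.2, adjusted p = 0.000823). Replicate 5 was the lowest treated library, and the other 5, at 2.67 to 3.47 RPKM, were also below WT. Aurka, a mitotic kinase, changed by -0.86 and Plk1, another, by -0.82 (adjusted p = 0.00305 and 0.012), and Ccne1, the cyclin of S phase entry, by -0.68 (adjusted p = 0.0067). These 3 calls were lost within replicates 1 to 4 (adjusted p = 0.0918, 0.282 and 0.0919). Mki67, the common marker of cycling cells, lay at 3.1, 5.55 and 8.91 RPKM in DM-aKG and 4.73, 11.7 and 16.5 RPKM in WT libraries and did not pass (log2 change -0.70, adjusted p = 0.0797). It passed as lower in 5 alternatives: without WT replicate 1, with quantile normalization, with median-of-ratios scaling, with array weights and within replicates 5 to 7 (adjusted p = 0.0375, 0.0455, 0.0406, 0.00998 and 0.0297).

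Single differentiation genes of the epithelium differed from WT in either direction. In the absorptive enterocyte list 5 of 24 genes were higher and 5 lower (median -0.24, -0.41 in replicates 1 to 4, -0.02 in replicates 5 to 7, control median -1.25), beside 21.9% and 17.3% of all genes. Without DM-aKG replicate 5 they were 3 and 3, without WT replicate 2 or 4 the higher count was 3, and the lower count ranged from 3 to 8 on leaving out 1 library (3 without WT replicate 1, 3, 5 or 6 or DM-aKG replicate 1 or 2, 8 without DM-aKG replicate 6). Krt20, a keratin of mature villus and surface cells (chr11:99428403-99438150), lay at 257, 449.9 and 715 RPKM in DM-aKG and 979, 1118 and 1679.9 RPKM in WT libraries (log2 change -1.51, SE 0.21, adjusted p = 2.9e-05). Vil1, the actin bundler of microvilli, lay at 383, 538 and 650.1 RPKM in DM-aKG and 796, 882 and 1071 RPKM in WT libraries (log2 change -0.82, SE 0.18, adjusted p = 0.00137). Slc5a1, the sodium glucose transporter, lay at 301, 349 and 420.2 RPKM in DM-aKG and 454, 562 and 894 RPKM in WT libraries (log2 change -0.82, SE 0.2, adjusted p = 0.00312). The treated libraries stayed below the WT range for these 3 genes. Vil1 and Slc5a1 were lower still in control libraries, and their differences between DM-aKG and control passed (log2 0.53 and 0.59, adjusted p = 0.0249 and 0.0246). Apob, the structural protein of chylomicrons, lay above WT, at 398, 435 and 727 RPKM in DM-aKG and 215, 287 and 349 RPKM in WT libraries (log2 change 0.79, SE 0.16, adjusted p = 0.000794). Fabp2 and Fabp6, fatty acid and bile acid binding proteins of proximal and ileal enterocytes, overlapped WT widely and did not pass (log2 -0.39 and 0.17, adjusted p = 0.514 and 0.87). Epcam was lower by a small amount (log2 change -0.52, adjusted p = 0.00117), a call lost with quantile normalization (adjusted p = 0.0542).

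In the goblet cell list 8 of 16 genes were lower and 2 higher (median -0.54, -0.54 in replicates 1 to 4, -0.48 in replicates 5 to 7). Agr2, which folds mucin in goblet cells, lay at 71.5, 167 and 251 RPKM in DM-aKG and 247, 407 and 514 RPKM in WT libraries (log2 change -1.33, SE 0.26, adjusted p = 0.000682), with a slight overlap. Klk1, a secreted protease, lay at 8.22, 17.9 and 21.8 RPKM in DM-aKG and 32.8, 47.9 and 85.3 RPKM in WT libraries (log2 change -1.71, SE 0.22, adjusted p = 1.5e-05), without overlap. Guca2a, guanylin, a regulator of fluid secretion, lay above WT at 606, 819 and 953 RPKM in DM-aKG and 365, 419.9 and 481 RPKM in WT libraries (log2 change 0.89, SE 0.17, adjusted p = 0.000507). Rep15 changed by -1.24 (adjusted p = 0.00297). In the enteroendocrine list 6 of 12 genes were higher and none lower (median 0.54, 0.68 in replicates 1 to 4, 0.23 in replicates 5 to 7, control median -0.14). Pyy, a satiety hormone of the distal gut, lay at 25.5, 58.2 and 74.7 RPKM in DM-aKG and 14, 15.9 and 37.8 RPKM in WT libraries (log2 change 1.46, SE 0.27, adjusted p = 0.000479), with DM-aKG replicate 6 alone inside the WT range. Sst, somatostatin, lay at 27.8, 33.7 and 45.8 RPKM in DM-aKG and 16, 22.1 and 27.1 RPKM in WT libraries (log2 change 0.62, SE 0.15, adjusted p = 0.00379). Neurod1, a factor of endocrine cells, changed by 0.53 and the hormone Ghrl by 0.54 (adjusted p = 0.00207 and 0.00957), with overlap.

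In the ileum list 5 of 12 genes were higher and none lower (median 0.28, 0.72 in replicates 1 to 4, 0.13 in replicates 5 to 7), Pyy among them. The ileal hormone Nts changed by 0.83, uroguanylin Guca2b by 1.09 and its receptor Gucy2c by 0.36 (adjusted p = 0.0177, 0.0181 and 0.011). Those 3 calls held in neither set of replicates alone, and that of Gucy2c was lost with median-of-ratios scaling (adjusted p = 0.0536). The Paneth cell list, of antimicrobial crypt base cells, had 2 of 18 genes higher and none lower (median 0.72, 1.65 in replicates 1 to 4, -0.75 in replicates 5 to 7), with 15 of 18 higher within replicates 1 to 4 and none called within replicates 5 to 7. The count of 2 became 0 when any 1 of DM-aKG replicates 2, 3 and 5 and WT replicates 1 to 4 was left out, and 1 when DM-aKG replicate 4, WT replicate 6 or 7 or control replicate 4, 6 or 7 was. Lyz1, lysozyme of Paneth cells, lay at 1126, 2144 and 3136 RPKM in DM-aKG and 373, 1215 and 3454 RPKM in WT libraries (log2 change 0.63, adjusted p = 0.391). It was higher within replicates 1 to 4 (log2 1.59, adjusted p = 0.00647) and had the opposite sign within replicates 5 to 7 (log2 -0.81, adjusted p = 0.366). The 27 alpha-defensin genes of the same cells are near-identical and were summed: 10800, 26790 and 46830 RPKM in DM-aKG against 3948, 14110 and 39530 RPKM in WT libraries to 4 digits, with overlap (2-sided exact permutation p = 0.174).

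Inducible defence genes of the lining were called at shares near the 21.9% higher and 17.3% lower of all genes. In the inducible mucosal defence list 4 of 21 were higher and 5 lower (median -0.0097, 0.17 in replicates 1 to 4, -0.37 in replicates 5 to 7). Duox2, the oxidase that releases hydrogen peroxide into the lumen (chr2:122279247-122298449), lay at 1.98, 4.12 and 8.57 RPKM in DM-aKG and 25.1, 43.2 and 81.8 RPKM in WT libraries (log2 change -3.13, SE 0.37, adjusted p = 6.01e-06). Duoxa2, its maturation factor, lay at 1.75, 3.31 and 11.1 RPKM in DM-aKG and 17.9, 60 and 87.9 RPKM in WT libraries (log2 change -3.2, SE 0.41, adjusted p = 1.58e-05). Control libraries lay between, at a median of 14.3 RPKM for Duox2 and 30.1 for Duoxa2, and treated libraries were below them (log2 -1.86 and -2.57, adjusted p = 0.000723 and 9.2e-05). Pigr, which carries IgA across the epithelium, lay at 158, 211 and 268 RPKM in DM-aKG and 411, 690.3 and 862 RPKM in WT libraries (log2 change -1.7, SE 0.23, adjusted p = 2.78e-05), and treated libraries were above control (log2 0.77, adjusted p = 0.0149). Reg1, a regenerating-family lectin, lay at 0.0959, 0.363 and 0.685 RPKM in DM-aKG and 0.931, 1.82 and 3.54 RPKM in WT libraries (log2 change -1.0, SE 0.16, adjusted p = 0.000136). Of 19 genes of the NRF2 antioxidant list 5 were higher and 5 lower, beside 21.9% and 17.3% of all genes, and the higher count was 2 or 3 on leaving out any 1 of DM-aKG replicates 2, 3 and 5 and WT replicates 2, 3, 5 and 7. Gpx2, the gut glutathione peroxidase, lay at 54.3, 95.7 and 196 RPKM in DM-aKG and 223, 390.1 and 564 RPKM in WT libraries (log2 change -1.9, SE 0.29, adjusted p = 7.54e-05). Srxn1 and G6pdx changed by -0.89 and -0.60 and the transferase Gsta3 by 1.44 (adjusted p = 0.000406, 0.000446 and 0.00041). In the xenobiotic metabolism list 7 of 33 genes were higher, a share like the 21.9% of all genes, and 3 lower, with 4 higher without DM-aKG replicate 5. The sulfotransferase Sult1a1 and the cytochrome Cyp4b1 changed by 1.44 and 1.49, and the transferase Gstm3 by -2.86 (adjusted p = 0.000237, 0.0046 and 0.000996). The groups overlapped for Cyp4b1 and for Gstm3, which spread widely in WT libraries, from 3.47 RPKM in replicate 2 to 40.9 RPKM in replicate 1.

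Several genes that mark adenomas were above WT under treatment, at levels that differed between treated libraries. In the Wnt target list 8 of 28 genes were higher and 2 lower (median 0.34, 0.63 in replicates 1 to 4, 0.02 in replicates 5 to 7, control median 1.86 with 24 higher), beside 21.9% higher and 17.3% lower over all genes. For control against WT the share higher over all genes was 43.2%. The count higher was 5 without DM-aKG replicate 3, 4 without DM-aKG replicate 5 and 13 without DM-aKG replicate 6. Without DM-aKG replicate 2 the counts were 3 higher and 3 lower (median 0.23). Notum, a secreted enzyme that disables Wnt proteins (chr11:120653788-120661175), was at 0.239, 35.9, 7.39, 2.2, 6.35 and 0.341 RPKM in DM-aKG replicates 1 to 6, against 0.0772, 0.133 and 0.208 RPKM in WT (log2 change 2.09, SE 0.56, adjusted p = 0.00708). Replicates 1 and 6 were just above the highest WT library and replicate 2 more than 100-fold above it. Wif1, a secreted Wnt inhibitor, lay at 0.116, 3.86 and 28.5 RPKM in DM-aKG and 0.0682, 0.122 and 0.312 RPKM in WT libraries (log2 change 2.06, SE 0.53, adjusted p = 0.00549), with DM-aKG replicates 1 and 6 inside the WT range. Igfbp4, a binding protein of insulin-like growth factors and a stem cell list gene, lay at 26.5, 40.6 and 54.9 RPKM in DM-aKG and 18.8, 22 and 25.2 RPKM in WT libraries (log2 change 0.80, SE 0.15, adjusted p = 0.000488). Apcdd1, a membrane inhibitor of Wnt signalling, changed by 1.01 (adjusted p = 0.000814). Leaving out DM-aKG replicate 2 gave log2 changes of 1.5 for Notum, 1.54 for Wif1 and 0.70 for Igfbp4 (adjusted p = 0.0103, 0.00967 and 0.00145). Within replicates 5 to 7 the 3 did not pass (adjusted p = 0.201, 0.197 and 0.0631).

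Other Wnt targets overlapped WT or were lower. Axin2, the feedback scaffold of the pathway, lay at 5.49, 8.62 and 18.3 RPKM in DM-aKG and 6.82, 14.2 and 17.4 RPKM in WT libraries and did not pass (log2 change -0.49, adjusted p = 0.0965). It passed as lower in 5 alternatives: without DM-aKG replicate 2 (log2 -0.68), without WT replicate 1, with median-of-ratios scaling, with array weights and with the smooth muscle covariate (adjusted p = 0.0181, 0.0292, 0.0481, 0.00584 and 0.0412). Ccnd1, cyclin D1, lay at 3.44, 7.49 and 12.2 RPKM in DM-aKG and 19.8, 31.4 and 41.4 RPKM in WT libraries (log2 change -1.84, SE 0.3, adjusted p = 0.000137), below WT in every treated library, and at 8.0, 23 and 39 RPKM in control. Within replicates 5 to 7 its adjusted p was 0.0882. The stem cell receptor Lgr5 lay at 1.71, 3.0 and 8.93 RPKM in DM-aKG and 0.528, 2.37 and 3.9 RPKM in WT libraries (log2 change 0.47, adjusted p = 0.34), with replicate 2 far above the other treated libraries, and the stem cell gene Olfm4 at 8.89, 40.1 and 96.8 RPKM in DM-aKG and 16, 80.9 and 163 RPKM in WT libraries (log2 change -0.58, adjusted p = 0.541). In the crypt base stem cell list 2 of 20 genes were higher and none lower (median 0.28, 0.47 in replicates 1 to 4, -0.24 in replicates 5 to 7, control median 1.35). This was a smaller share higher than the 21.9% of all genes. Within replicates 1 to 4 there were 3 higher and none lower, and within replicates 5 to 7 none higher and 2 lower. The count higher was 1 without WT replicate 1 or DM-aKG replicate 2 or 5 and 4 without DM-aKG replicate 6. Without WT replicate 1 or DM-aKG replicate 2 there was also 1 lower.

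In the fetal and regenerating epithelium list 5 of 22 genes were higher and 1 lower (median 0.38, 0.49 in replicates 1 to 4, 0.11 in replicates 5 to 7, control median 1.89 with 19 higher), a share higher close to the 21.9% of all genes. The control count stands beside 43.2% of all genes higher in control than in WT. Clu, a chaperone that marks regenerating crypts (chr14:65968483-65981547), was at 17.7, 234.7, 80.3, 35, 62.4 and 28.3 RPKM in DM-aKG replicates 1 to 6, against 8.2, 10.9 and 34.3 RPKM in WT (log2 change 2.02, SE 0.43, adjusted p = 0.00135). WT replicate 1, at 34.3 RPKM, made the groups overlap. Anxa1, a glucocorticoid-regulated annexin, lay at 7.98, 15.2 and 58.1 RPKM in DM-aKG and 3.8, 6.82 and 8.97 RPKM in WT libraries (log2 change 1.39, SE 0.33, adjusted p = 0.00276), and DM-aKG replicate 6 fell in the WT range. The 1 gene lower was Anxa2, another annexin (log2 change -0.61, adjusted p = 0.0069). Of 9 genes of the list of stomach and pancreas genes 3 were higher (median 0.93, control median 3.52), and 6 and 5 without DM-aKG replicates 1 and 6. Gkn3, a secreted gastrokine, lay at 0.141, 3.92 and 19.8 RPKM in DM-aKG and 0.0447, 0.0491 and 0.386 RPKM in WT libraries (log2 change 1.82, SE 0.52, adjusted p = 0.01), with replicates 1 and 6 in the WT range. Wfdc18, a secreted protein, lay at 0, 5.91 and 41.6 RPKM in DM-aKG and 0, 0.0643 and 0.326 RPKM in WT libraries (log2 change 2.39, SE 0.63, adjusted p = 0.00602), with some libraries of both groups listed at 0. Without DM-aKG replicate 2 the changes were 1.59 for Clu, 1.07 for Anxa1, 1.35 for Gkn3 and 1.81 for Wfdc18.

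**Figure D4:**
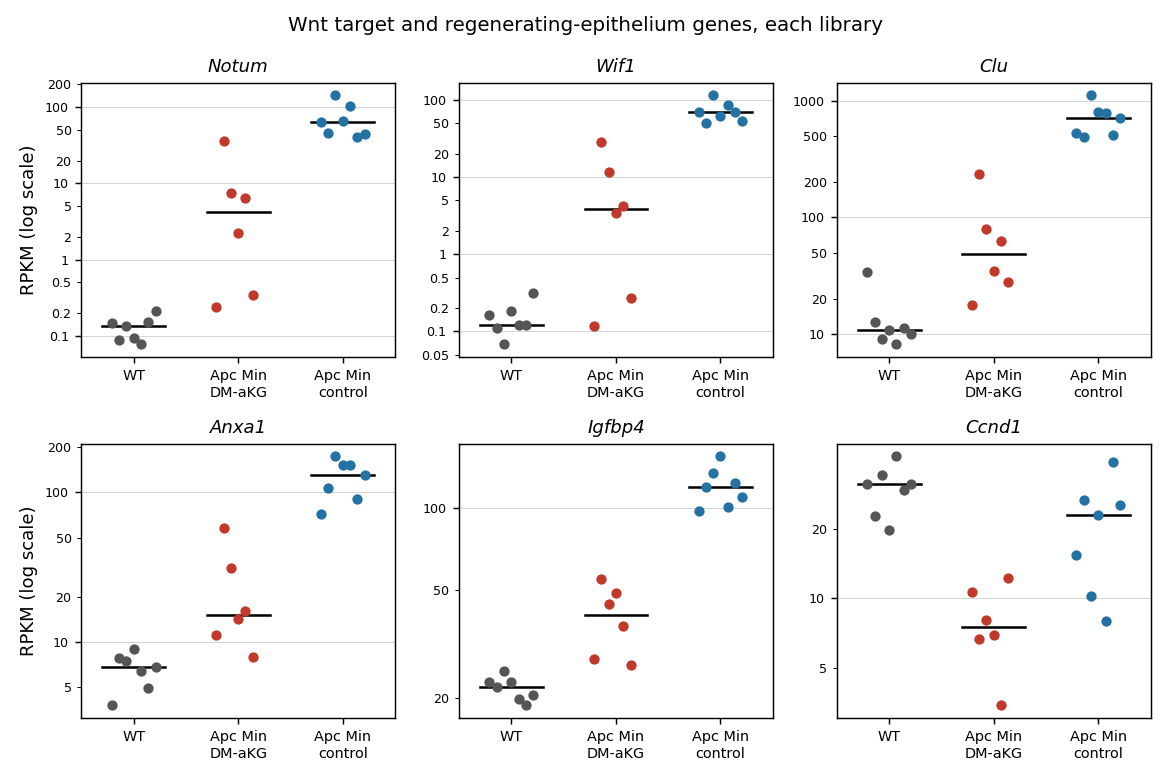
RPKM on a log scale of Notum, Wif1, Clu, Anxa1, Igfbp4 and Ccnd1 in each library (points, ordered by replicate number within a group; black bars are group medians) for WT (7), DM-aKG treated Apc Min (6) and control Apc Min (7). Treated libraries spread from the WT range toward the control range, with replicate 2 highest for the first 4 genes, and lie below both medians for Ccnd1.

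Genes on opposite sides of WT in the 2 Apc Min groups were few. Called lower in DM-aKG and higher in control against the same WT libraries were 66 genes (0.531% of those tested), and called higher in DM-aKG and lower in control were 8 (0.0643%). The counts depend on single libraries. The 66 became 33 without DM-aKG replicate 5 and 115 without DM-aKG replicate 2. The 8 became 15 without DM-aKG replicate 6, 18 without control replicate 1, and 3 to 5 without any 1 of the WT libraries, DM-aKG replicates 3 and 4 or control replicates 2 to 5. With replicates 1 to 4 alone the counts were 24 and 27.

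Of the genes passed below WT, Myl7, an atrial myosin light chain (chr11:5896637-5898782), ranked first by the smaller of its 2 distances from WT, with 1.44, 2.37 and 4.85 RPKM in DM-aKG, 4.66, 7.69 and 11.3 RPKM in WT and 14.5, 17.3 and 43.3 RPKM in control libraries. Its log2 difference from WT was -1.11 in DM-aKG (SE 0.25, adjusted p = 0.00218) and 1.47 in control (adjusted p = 4.1e-05). Tmsb10, an actin-binding thymosin often raised in tumours, lay at 71.7, 117 and 152 RPKM in DM-aKG, 185, 198 and 282 RPKM in WT and 347, 449 and 778 RPKM in control libraries (log2 change -0.90, SE 0.18, adjusted p = 0.000897). For Tmsb10 all 3 groups were separate, and for Myl7 DM-aKG replicate 2 was just inside the WT range. Ly6e, an interferon-inducible surface protein, changed by -0.73 in DM-aKG and 0.80 in control (adjusted p = 0.00288 and 0.000425). Apobec3, a cytidine deaminase that restricts retroviruses, changed by -0.58 and 1.04 (adjusted p = 0.0111 and 2.05e-05). DM-aKG replicate 2 was the highest treated library for both and lay inside the WT range.

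Kcne3, a potassium channel subunit of chloride-secreting crypt cells, changed by -0.87 in DM-aKG and 0.65 in control. Ckap4, a protein of the endoplasmic reticulum, changed by -0.81 and 0.63, Cks1b, a partner of cyclin-dependent kinases, by -0.68 and 0.62, and Gch1, which opens tetrahydrobiopterin synthesis, by -0.62 and 1.01. The adjusted p against WT in DM-aKG was 0.0143, 0.00119, 0.0193 and 0.0202 for the 4 genes. Cks1b lost its call without DM-aKG replicate 5 and Gch1 without DM-aKG replicate 4 or 5 (adjusted p = 0.0577, 0.0521 and 0.064). Within replicates 1 to 4, Ly6e, Apobec3, Kcne3, Ckap4 and Cks1b did not pass (adjusted p = 0.0745, 0.214, 0.142, 0.0534 and 0.112).

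Of the 8 genes passed above WT, 4 had the level required for naming. Dpyd, the enzyme that degrades uracil and thymine, lay at 40.7, 55.5 and 66 RPKM in DM-aKG, 33.8, 38 and 42.5 RPKM in WT and 20.9, 30 and 38.6 RPKM in control libraries (log2 change 0.48, SE 0.13, adjusted p = 0.00653). Ntn1, netrin, a guidance cue, lay at 4.5, 6.38 and 8.54, 3.63, 4.36 and 5.94 and 1.98, 3.61 and 3.98 RPKM in the same order (log2 change 0.47, SE 0.14, adjusted p = 0.0132). For both, the lowest treated libraries reached into the WT range. Slc2a4, the insulin-responsive glucose transporter, changed by 0.40 and Gpr20, an orphan receptor of pacemaker cells, by 0.37 (adjusted p = 0.0433 and 0.0364). The Slc2a4 call was lost without any 1 of the DM-aKG libraries or WT replicate 5, 6 or 7 and that of Gpr20 without WT replicate 3, 5, 6 or 7, and also on leaving out treated replicate 3, 4 or 5. Both were lost with quantile normalization and with median-of-ratios scaling. None of the 4 calls held in either set of replicates, where the adjusted p of Dpyd was 0.0529 and 0.156 and that of Ntn1 0.105 and 0.136. Smooth muscle genes differed between the Apc Min groups, as given above, and with their mean log2 level in the fit the 8 became 1 and the 66 became 39. With array weights the counts were 31 and 207. The cause of these moves was not tested.

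**Figure D5:**
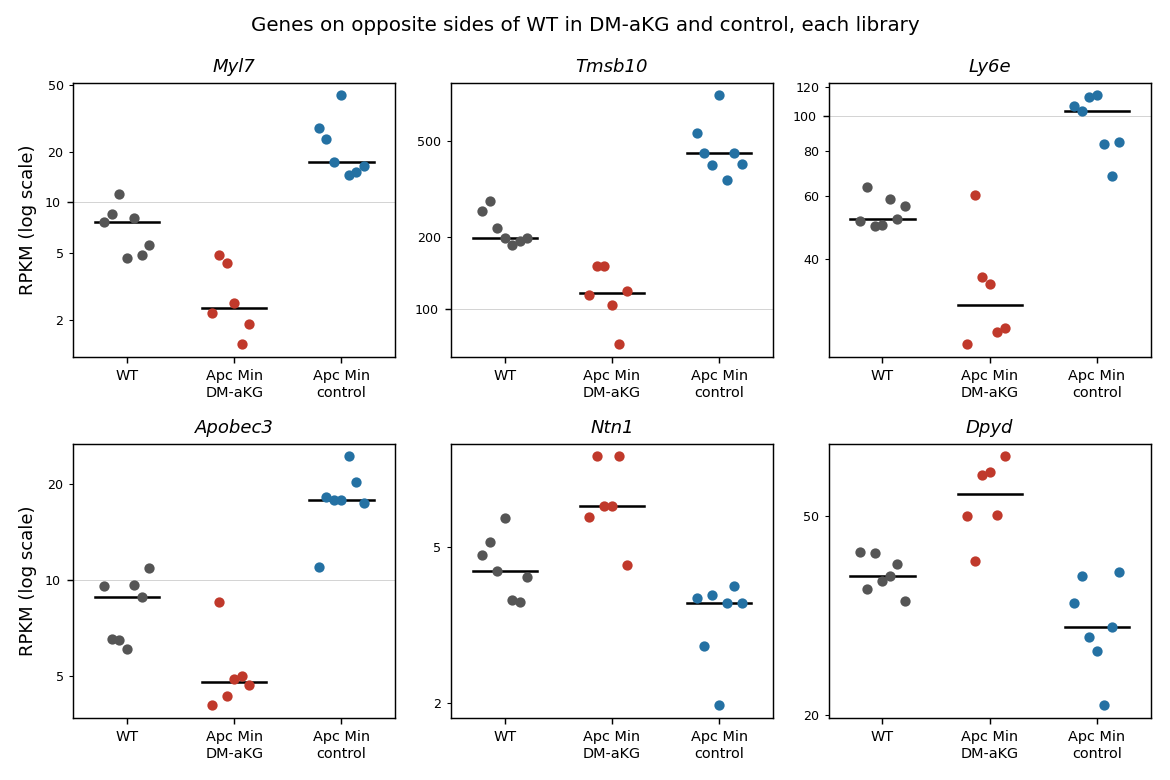
RPKM on a log scale of Myl7, Tmsb10, Ly6e, Apobec3, Ntn1 and Dpyd in each library (points, ordered by replicate number within a group; black bars are group medians) for WT (7), DM-aKG treated Apc Min (6) and control Apc Min (7). For the first 4 genes the treated median lies below and the control median above the WT median, and for Ntn1 and Dpyd the order is the opposite.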

How the data were processed

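RNA sequencing of 20 mouse intestinal libraries was deposited by the authors as 1 table of expression values for 24795 genes. The authors' values were taken as RPKM from their pattern (low values fall near whole multiples of the worth of 1 read, scaled by gene), since no label or header used here states the unit or what each tool did. The submitters' processing notes list CASAVA 1.8, HISAT2 2.0.4, Partek and the build mm10. Library numbers 1 to 7 of a group come from the titles.

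Values were taken as log2(RPKM + 1), with a minimum of 1 RPKM in 6 or more libraries for a gene to be tested. A linear model of the 3 groups over all 20 libraries was fitted with limma 3.58.1 (R 4.3.3; trend and robust settings), with Benjamini-Hochberg adjustment over all 12433 genes and a threshold of 0.05. Tested on simulated data with these libraries' spread, the step recovered 59.7% of genes changed by 0.5, 85.1% by 1 and 98.5% by 2 on the log2 scale. Per-library sums were compared by 2-sided exact permutation tests.

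The members and the 43 gene lists were chosen with earlier results of these data known. Named genes were the 12 largest changes each way past the threshold (mean log2 level of at least 2, each group's median outside the other's range), the 8 largest each way beyond WT with the same level (both without predicted genes and antigen receptor segments), up to 4 genes a list with the lowest adjusted p, and a set of marker genes named for their role; a few genes that this rule selects are not reported here. Positions are from GENCODE on mm10 and promoters from RefSeq GRCm38.p6 (first entry of a symbol). Alternatives covered scaling, filter, pseudocount, weights, a fold threshold, covariates, the replicate number as a block, subsets of replicates and leaving out each library. In the table, 26 rows had names turned into dates and were not identified as genes, and 24228 matched an annotated symbol.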

Additional observations from a re-analysis of the deposited data

Results flagged for a closer look

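Each item here is a library whose level of a gene lay far from the rest of its group, judged by Dixon's gap test at the 95% level. Of 334 groups of values tested 21 passed, and chance alone passes about 1 group in 20, so single items carry little weight. DM-aKG replicate 6 held 7, DM-aKG replicate 5 held 5 and DM-aKG replicate 2 held 3. The cause of each was not tested.

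DM-aKG replicate 6 was high for 2 interferon-related genes, with Oas3 at 1.83 RPKM (other treated libraries 0.211 to 0.653) and Apol9b at 2.93 RPKM (0.143 to 0.812). It was also high for Fabp2, at 6920 RPKM (2530 to 3570), and low for the hormone Pyy, at 25.5 RPKM (56.4 to 74.7). The same library was lowest for 3 ribosomal protein genes, with Rpl10a at 227 RPKM (310.3 to 358), Rpl4 at 437 RPKM (539 to 589.7) and Rpl23 at 252 RPKM (318 to 356).

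DM-aKG replicate 5 was low for the cell cycle genes Birc5, at 0.896 RPKM (2.67 to 3.47), and Ccne1, at 0.283 RPKM (0.761 to 1.12). It was low as well for Psmb8, at 6.24 RPKM (10.7 to 14.2), and Epcam, at 506 RPKM (654 to 722), and high for the clock gene Hlf, at 9.53 RPKM (4.52 to 5.59).

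DM-aKG replicate 2 was high for the stem cell gene Lgr5, at 8.93 RPKM (1.71 to 3.16), for Dusp1, at 24.0 RPKM (8.52 to 10.5), and for Apobec3, at 8.53 RPKM (4.03 to 5).

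Among WT libraries, replicate 1 was high for Clu, at 34.3 RPKM (8.20 to 12.6), and low for the ileal gene Fabp6, at 158 RPKM (2840 to 9730). WT replicate 2 was high for Pmvk, at 20 RPKM (9.98 to 13.3), and for Wfdc18, at 0.326 RPKM (0 to 0.0703). WT replicate 4 was high for Rep15, at 7.56 RPKM (5.59 to 6.10), and WT replicate 5 for Ciita, at 8.49 RPKM (5.35 to 6.47).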

How the results depend on the processing

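The 2722 genes higher in DM-aKG than in WT became 1712 with at least 5 RPKM in 6 libraries (7957 genes tested), 148 when tested against a log2 change of 0.5 and 198 within replicates 5 to 7, and ranged from 2231 (without DM-aKG replicate 5) to 2976 (without DM-aKG replicate 6) when 1 library was left out. The 2151 lower became 170 and 349 under the fold threshold and within replicates 5 to 7, with a range of 1571 (without DM-aKG replicate 5) to 2265 (without control replicate 5). The median over all genes was 0.0105 after quantile normalization and -0.00918 after median-of-ratios scaling.

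The 8 genes higher in DM-aKG and lower in control became 34 with quantile normalization, 27 with median-of-ratios scaling, 14 with no filter, 3 with at least 5 RPKM, 31 with array weights, 0 under the fold threshold, 27 within replicates 1 to 4, 1 within replicates 5 to 7 and 1 with the smooth muscle covariate, and ranged from 3 (without WT replicate 3) to 18 (without control replicate 1) with 1 library left out. The 66 in the other direction became 42 with median-of-ratios scaling, 207 with array weights, 0 under the fold threshold, 24 and 17 within the sets of replicates, 167 with the set as a factor and 39 with the smooth muscle covariate, and ranged from 33 (without DM-aKG replicate 5) to 115 (without DM-aKG replicate 2). A fit of the compared groups alone gives no such count. Some of these fits hold fewer libraries or genes; beyond that, the cause was not tested.

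The sign of an uncalled change turned for Myh11 with median-of-ratios scaling (-0.0119) and without DM-aKG replicate 3 (-0.0224, range to 0.17), Olfm4 within replicates 1 to 4 (0.68), Lyz1, Fabp2, Fabp6 and Lgr5 within replicates 5 to 7 (-0.81, 0.033, -1.14 and -0.44), and Fabp6 without WT replicate 1 (-0.51) and DM-aKG replicate 1 (-0.03), with a range over single libraries of -0.51 to 0.51.

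With the replicate number as a block the counts were 3151 higher, 4 and 122 beyond WT, and 2 of the 151 called genes named here lost the call. The numbers share no stated animal or batch, and same-numbered DM-aKG and WT libraries did not deviate together (correlations over genes of -0.0135, 0.0739, -0.0508, 0.152, 0.0661 and 0.0583). Of the 160 genes, 149 kept their direction and their call or lack of one under every alternative apart from the fold threshold and the 2 subsets of replicates; within replicates 1 to 4 alone 17 of the 151 lost the call, and within replicates 5 to 7 alone 77. Estimated depth was 26.3 to 27.5 M reads in DM-aKG, 25.8 to 29.3 M in WT and 21.2 to 28.7 M in control libraries. At such depths, genes under about 1 RPKM, such as Ciita in treated libraries, rest on fewer reads than higher genes of like length.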

Other observations

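The remaining gene lists gave the following counts, beside 21.9% higher and 17.3% lower over all genes tested. In the ribosome biogenesis list 5 of 24 genes were higher in DM-aKG than in WT and none lower (median 0.05, 0.23 in replicates 1 to 4, -0.27 in replicates 5 to 7). Control libraries had 21 higher against the same WT libraries, where 43.2% of all genes were higher. In the list of ATF4, serine and proline synthesis genes, which respond to amino acid shortage, 3 of 20 were higher and 3 lower (median -0.23). The tuft cell list had 2 of 6 genes higher and none lower. The proximal small intestine list had 1 of 12 higher and 3 lower, and the large intestine list had none of 6 higher and 2 lower. The adipocyte list had 1 of 9 genes higher, the mesothelial list 1 higher and 1 lower of 4, and neither of the 2 pancreatic acinar genes tested was called. Leaving out 1 library moved some of these counts by over 1.5 times. The proximal list had 1 lower without WT replicate 1, DM-aKG replicate 2 or DM-aKG replicate 4, and 0 without DM-aKG replicate 5. The tuft cell list had 1 higher without WT replicate 2, 4 or 5, and 1 higher with 2 lower without DM-aKG replicate 4. The adipocyte list had 3 higher without WT replicate 3, and the mesothelial list had 0 higher without WT replicate 7 or DM-aKG replicate 3 or 4. In the ribosome biogenesis list 1 gene was lower without DM-aKG replicate 2, DM-aKG replicate 3 or control replicate 4, and 1 acinar gene was higher without DM-aKG replicate 5.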
